A study of Mus musculus with 401 samples.

Results

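The genes described here were 8 actin nucleators and nucleator subunits: the formin Fmn2, its partners Spire1 and Spire2, and the Arp2/3 complex subunits Arpc1a, Arpc1b, Arpc2, Actr2 and Actr3. They were chosen by symbol, and all 8 were found among the 41092 genes counted in the first set of samples and the 42349 counted in the second, or 43633 genes in either. Single oocytes at the germinal vesicle (GV) stage, which have not yet resumed meiosis, and the pool of cumulus cells around each of them were taken from B6D2F1 female mice, the first generation offspring of C57BL/6 and DBA/2 parents, and their RNA was profiled by RamDA-seq, which copies total RNA along the whole transcript. The first set compared young mice at 2 months (2 mouse labels, 16 oocyte libraries), middle mice at 9 months (4 labels, 14 libraries) and old mice at 14 months (2 labels, 16 libraries), all fed ad libitum, with mice at 9 months under adult-onset calorie restriction (CR), which was brought in stepwise and reached its full level at 4 months of age (3 labels, 27 libraries). The second set held mice at 2 months (2mo, 5 labels) and 4 months (4mo, 8 labels). It also held mice at 9 months (9mo, 4 labels) and 14 months (14mo, 5 labels). A further group was at 2 months without hyperovulation (2moNoH, 8 labels). The study describes no calorie restriction for this set and does not state its feeding separately. All groups except 2moNoH had received equine chorionic gonadotropin or HyperOva to bring on many follicles, and the label Old1_2 joined 2 mice.

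Mammalian oocytes divide very unequally, and the spindle reaches the cortex by forces that come from actin filaments rather than from astral microtubules. Fmn2 elongates unbranched filaments, and the WH2-domain proteins Spire1 and Spire2 act with it to build the cytoplasmic actin mesh, largely on Rab11a-positive vesicles. The Arp2/3 complex, by contrast, starts branches on existing filaments and builds the cortical actin cap. Actr2 and Actr3 (Arp2 and Arp3) form its nucleating core, Arpc2 is part of the backbone that holds the mother filament, and Arpc1a and Arpc1b are alternative forms of its WD-repeat subunit.

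Arpc1a (ENSMUSG00000029621) and Arpc1b (ENSMUSG00000029622) are neighbours on the plus strand of chromosome 5 (GRCm38, chr5:145083830-145108761 and chr5:145114215-145130705), 5453 bases apart, and they turned out to be highest in opposite cell types. Fmn2 (ENSMUSG00000028354, chr1:174501825-174822729, plus strand) was the member that differed most between the cell types. For this reason the 250 bases upstream of the RefSeq start of these 3 genes on GRCm38.p6 are shown, 5′ to 3′ on the plus strand. The gene coordinates above are from GENCODE, and the Arpc1a and Arpc1b windows end past the starts given there, at 145083868 and 145114255. Each E-box (CANNTG, which reads the same way on both strands and is the core bound by basic helix-loop-helix factors) is in capitals.
Fmn2, chr1:174501575-174501824: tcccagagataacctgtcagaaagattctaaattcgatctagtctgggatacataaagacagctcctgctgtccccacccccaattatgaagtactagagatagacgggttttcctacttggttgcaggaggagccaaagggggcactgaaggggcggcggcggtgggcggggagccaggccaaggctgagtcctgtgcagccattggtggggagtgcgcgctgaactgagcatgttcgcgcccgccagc
Arpc1a, chr5:145083619-145083868: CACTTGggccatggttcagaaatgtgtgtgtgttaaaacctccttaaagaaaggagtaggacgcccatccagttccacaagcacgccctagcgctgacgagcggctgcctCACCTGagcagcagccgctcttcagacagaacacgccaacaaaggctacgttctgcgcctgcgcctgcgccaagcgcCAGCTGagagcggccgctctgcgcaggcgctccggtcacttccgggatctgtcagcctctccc
Arpc1b, chr5:145114006-145114255: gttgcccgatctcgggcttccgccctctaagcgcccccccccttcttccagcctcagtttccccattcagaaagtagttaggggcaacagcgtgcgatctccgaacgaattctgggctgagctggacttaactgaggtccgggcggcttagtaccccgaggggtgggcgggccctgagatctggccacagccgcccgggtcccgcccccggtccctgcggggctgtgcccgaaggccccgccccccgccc
The Arpc1a window held 3 E-boxes and 18 CpG sites, the Arpc1b window 0 E-boxes and 20 CpG sites, and the Fmn2 window 0 E-boxes and 11 CpG sites. E-boxes were present in 66.2% of 32851 windows of the same length, so neither their presence nor their absence set these genes apart. The Fmn2 window also held 1 match to TAATTG, counted on both strands, which 7.17% of all windows had and which is a core bound by homeodomain factors, and 2 matches to CCAAT (33.8% of windows). No window of the 3 held TATAAA (12.4% of windows).

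In the 399 libraries used of 401, all 13 oocyte markers had a median count above 0 in oocytes of each set, and all 12 cumulus markers in cumulus cells. Total counts ranged from 559305 to 4536690 per oocyte library and from 848243 to 2501005 per cumulus library of the first set. In the second set they ranged from 1238441 to 2583456 and from 510029 to 1147286. Every CR library used was deeper than every middle library of its cell type. Oocyte totals were 2752043 to 4536690 in CR (median 3578882) and 1903858 to 2624876 in middle mice (median 2332126). Cumulus totals were 1568223 to 2501005 in CR and 848243 to 1269680 in middle mice. A complex of Middle3 (2 libraries) was left out because 1 library correlated more with the mean profile of the other cell type than with that of its label. In the oocyte libraries, summed cumulus markers stood at 0.814% to 27.8% of their median cumulus level in the first set (median 2.17%) and at 0.819% to 2.17% in the second, and 7 of 73 first-set oocyte libraries were above 10% (2 CR, 1 middle, 3 old and 1 young). All 3 such old libraries came from Old1_2. In cumulus libraries, summed oocyte markers had a median of 0.0136% of their oocyte level in the first and 0.0266% in the second set.

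In oocytes, over all conditions of a set, Actr2 was the highest of the 8 members per transcript length and Spire2 the lowest. In CR oocytes alone Arpc1a was lowest, at 6.21 RPKM against 8.05 RPKM for Spire2. Mean levels per length in the second set were 60.7 ± 2.83 RPKM for Actr2, 39.7 ± 2.43 for Fmn2, 36.01 ± 2.43 for Spire1, 32.2 ± 1.93 for Arpc2, 24.02 ± 1.72 for Arpc1b, 21.3 ± 1.76 for Actr3, 10.4 ± 1.31 for Arpc1a and 9.22 ± 1.32 for Spire2 (SD, n = 30 mouse labels). RPKM is the read count divided by the length of the gene's exons and by the library's size, here with the TMM (trimmed mean of M values) scaling of each cell type. Mean ± SD overlapped between Fmn2 and Spire1, Spire1 and Arpc2, Arpc1b and Actr3, and Arpc1a and Spire2, and not between the other neighbours in this order. The first set gave Actr2 at 60.9 ± 5.25 RPKM per length, with Spire1 (40.1 ± 4.68 RPKM) and Fmn2 (38.7 ± 3.55 RPKM) in the opposite order (n = 11 mouse labels).

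Cumulus cells had another order, led by Arp2/3 subunits, with Fmn2 and Spire2 at the bottom. Mean levels per length in cumulus cells of the second set were 35.1 ± 3.69 RPKM for Arpc2, 29.9 ± 4.02 for Arpc1a, 21.7 ± 4.02 for Actr3, 17.2 ± 2.97 for Actr2, 9.47 ± 2.45 for Arpc1b, 6.55 ± 1.041 for Spire1, 0.534 ± 0.214 for Fmn2 and 0.351 ± 0.279 for Spire2 (SD, n = 30 mouse labels). Mean ± SD overlapped between Arpc2 and Arpc1a, Actr3 and Actr2, Arpc1b and Spire1, and Fmn2 and Spire2. The first set had the same order in cumulus cells, from 43.9 ± 4.99 RPKM for Arpc2 to 0.310 ± 0.245 RPKM for Spire2 (n = 11 mouse labels). The bar plot of levels per length shows the orders of both cell types.

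**Figure D1:**
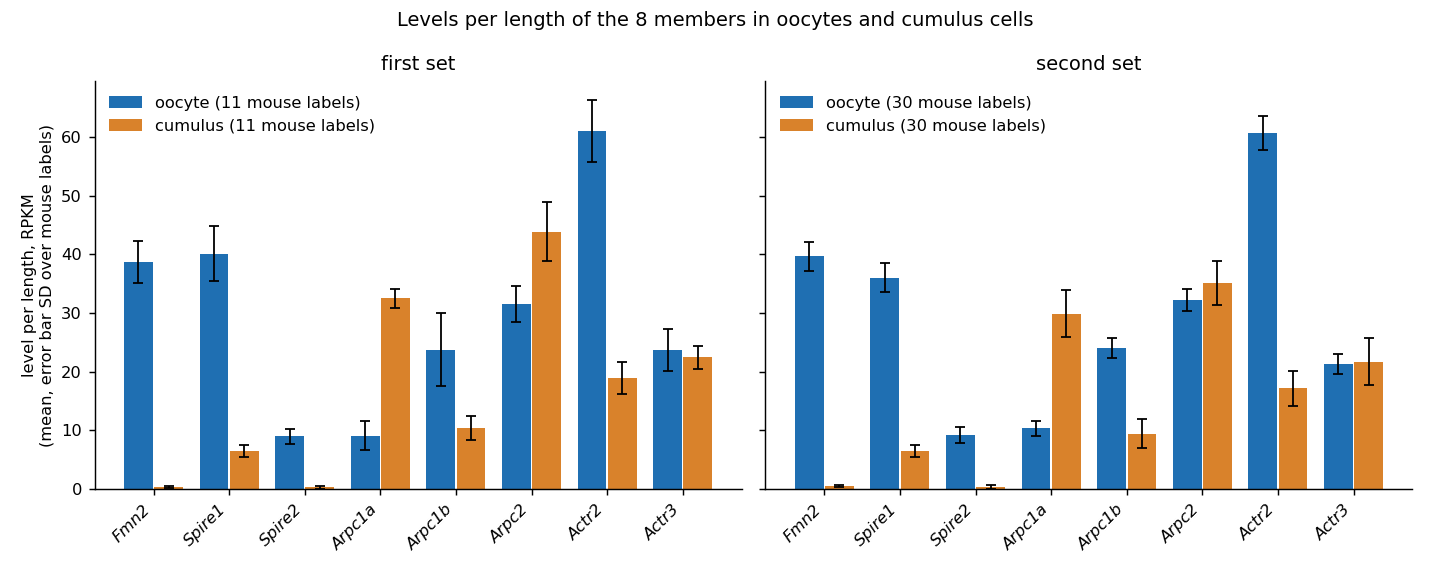
Level per length (RPKM, y axis from 0) of each member (x axis) in oocytes and cumulus cells of the first and second set, with bars at the mean and error bars at the SD over 11 and 30 mouse labels. Each cell type was scaled on its own, and in the second set Actr2 was highest in oocytes (60.7 RPKM) and Arpc2 in cumulus cells (35.1 RPKM), while Fmn2 and Spire2 were near 0 in cumulus cells.

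The comparison of oocytes with cumulus cells asked how these genes were divided between the gamete and its somatic neighbours. Of the 8 members, 7 were higher in oocytes and 1, Arpc1a, was lower, in both sets (edgeR quasi-likelihood test on counts summed per mouse label and cell type, adjusted over all genes at a false discovery rate of 5%). Such calls were the rule between these cell types, since 80.3% of 32407 genes tested were called in the first set and 83.7% of 33123 in the second, with a median log2 difference over all genes of 0.05 and -0.27. Values for this comparison are CPM, counts relative to the total count of the library after scaling, on a scale shared by both cell types. The TMM scaling behind it takes most genes as equal, and a smaller amount of a transcript cannot be told apart from a smaller amount of RNA behind a library.

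The Fmn2 and Spire group differed most. Fmn2 had 409 ± 43.9 CPM in oocytes and 2.11 ± 1.34 CPM in cumulus cells of the first set (n = 11), and 376 ± 33.8 against 3.58 ± 1.43 CPM in the second (n = 30). The log2 difference of Fmn2 was 7.47 ± 0.27 (SE; adjusted p = 4.4e-18, edgeR) in the first and 6.71 ± 0.09 (adjusted p = 7.3e-60, edgeR) in the second set. Labels ranged from 331 to 479 CPM in oocytes and from 0 to 4.25 CPM in cumulus cells of the first set, and from 308 to 448 CPM and from 0.465 to 7.18 CPM in the second. Every mouse label had more Fmn2 in its oocytes than in its cumulus cells, by the joint CPM scale, in 11 of 11 and 30 of 30 labels. Spire1 was lower in cumulus cells but present there, with 38.2 ± 5.71 against 419 ± 90.1 CPM in oocytes of the first set and 42.8 ± 6.66 against 333 ± 27.8 CPM in the second, log2 differences of 3.47 and 2.97. Spire2 had 29.9 ± 3.83 CPM in oocytes and 0.588 ± 0.463 CPM in cumulus cells of the first set and 27.6 ± 4.46 and 0.742 ± 0.593 CPM in the second, log2 differences of 5.65 ± 0.30 and 5.17 ± 0.14 (SE). It had no count in 38 of 71 cumulus libraries of the first set and 76 of 128 of the second, where Fmn2 had none in 7 and 15. The percentages that follow use CPM scaled within each cell type and not the shared scale. The median Fmn2 level of a cumulus library was 0.835% of the oocyte median in the first and 1.13% in the second set. The summed oocyte markers were at 0.0136% and 0.0266% in the same libraries.

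The core subunits of the Arp2/3 complex were split. Actr2 had 422 ± 52.1 CPM in oocytes against 74.4 ± 10.5 CPM in cumulus cells of the first set and 376 ± 30.0 against 75.2 ± 12.7 CPM in the second, log2 differences of 2.53 ± 0.11 and 2.32 ± 0.05 (SE). Actr3 had 146 ± 31.1 against 78.5 ± 6.99 CPM in the first set and 117 ± 11.3 against 84.7 ± 15.3 CPM in the second, log2 differences of 0.86 ± 0.10 and 0.49 ± 0.05 (SE), and was higher in the oocytes of 29 of 30 labels of the second set. Arpc2 was close to equal, with 86.2 ± 17.0 against 67.3 ± 7.75 CPM (higher in oocytes of 9 of 11 labels) and 77.9 ± 6.09 against 60.1 ± 6.33 CPM (28 of 30 labels), log2 differences of 0.35 (adjusted p = 0.0044, edgeR) and 0.37 (adjusted p = 3.2e-13, edgeR). The direction of Arpc2 was set by the scaling. With library totals in place of TMM, which moved the median of all genes to -0.75 and -0.71, Arpc2 was lower in oocytes by a log2 difference of -0.48 (adjusted p = 6.9e-06, edgeR) in the first and -0.12 (adjusted p = 0.0019, edgeR) in the second set. Under that scaling Actr3 was at 0.03 and 0.0018 and was not called, while the other 6 members kept their direction. With DESeq2 size factors Arpc2 was at -0.028 in the first set (adjusted p = 0.69), and with libraries as units at 0.04 (adjusted p = 0.43, edgeR). Without the label Young2, Arpc2 was at 0.24 and was not called in the first set (adjusted p = 0.12, edgeR).

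The WD-repeat subunit differed in form between the cell types. Arpc1b had 162 ± 46.3 CPM in oocytes and 40.4 ± 7.70 CPM in cumulus cells of the first set and 146 ± 14.7 against 40.8 ± 10.6 CPM in the second, log2 differences of 2.04 ± 0.13 and 1.84 ± 0.07 (SE). Arpc1a went the other way, with 31.3 ± 9.48 CPM in oocytes and 63.0 ± 3.22 CPM in cumulus cells of the first set and 31.7 ± 4.65 against 64.7 ± 8.96 CPM in the second, log2 differences of -0.97 ± 0.14 and -1.05 ± 0.05 (SE). Labels ranged for Arpc1a from 14.1 to 42.9 CPM in oocytes and from 57.7 to 68.2 CPM in cumulus cells of the first set, and from 23.6 to 43.8 CPM and from 48.9 to 81.1 CPM in the second, without overlap. Those of Arpc1b did not overlap either, with 86.6 CPM as the lowest oocyte and 54.9 CPM as the highest cumulus level of the first set, and 113 and 76.3 CPM in the second. A ratio of both forms within a library does not depend on how libraries are scaled. Per length, Arpc1b made up 72.4% ± 4.13 of Arpc1a and Arpc1b together in oocytes of the first set (SD, n = 11) and 69.9% ± 2.83 in the second (n = 30), against 24.3% ± 4.24 and 23.9% ± 3.95 in cumulus cells. The lowest share in oocytes of any mouse label was 62.9% and the highest in cumulus cells was 36.2%, so the cell types did not overlap.

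Arpc5 and Arpc5l, another paralogous pair of the complex, were also divided. Arpc5l made up 86.4% ± 3.39 of Arpc5 and Arpc5l per length in oocytes of the first set and 88.4% ± 1.28 in the second, against 25.1% ± 2.66 and 23.99% ± 3.52 in cumulus cells, with no overlap between the lowest oocyte share (81.3%) and the highest cumulus share (31.5%). Actr3b, the minor form of Arp3, was at 5.84% ± 1.68 of Actr3 and Actr3b in oocytes (3.07% to 8.03%) and 14.9% ± 4.28 in cumulus cells (8.499% to 21.9%) of the first set, without overlap, and at 7.14% ± 1.58 (2.87% to 9.78%) and 12.7% ± 4.46 (6.57% to 26.6%) in the second, with overlap. Of the 5 other Arp2/3 subunits, 2 were higher in oocytes in both sets, Arpc5l (log2 difference 3.24 and 3.48) and Arpc3 (3.24 and 2.68), and 3 were lower, among them Arpc5 (-1.03 and -1.12).

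**Figure D2:**
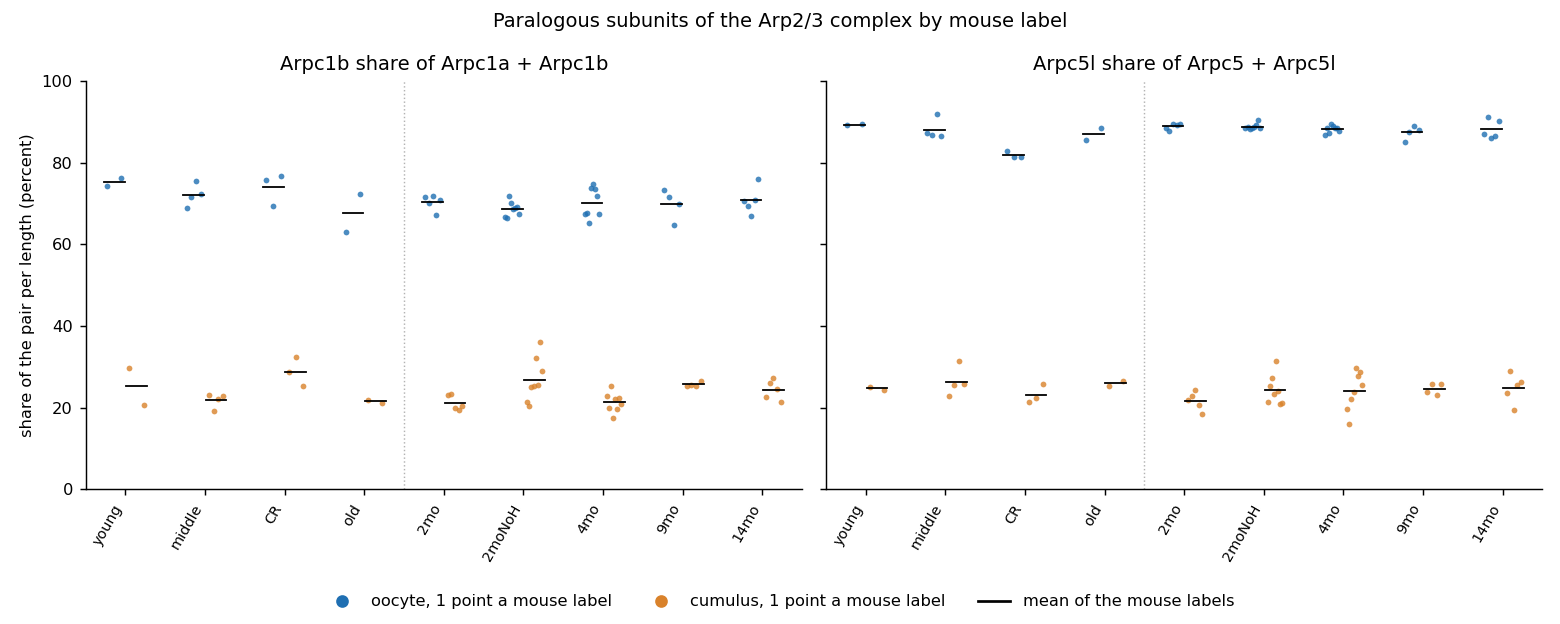
Share per length (percent, y axis from 0 to 100) of Arpc1b in Arpc1a and Arpc1b together (left) and of Arpc5l in Arpc5 and Arpc5l together (right), by condition (x axis), with 1 point for each mouse label and a line at the mean. Oocyte shares of Arpc1b were between 62.9% and 76.8% and cumulus shares between 17.6% and 36.2%, and the pairs were separated in every condition of both sets.

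Spire1 and Spire2 also differed in balance, with Spire2 at 18.5% ± 3.03 of both per length in oocytes of the first set and 20.4% ± 2.66 in the second, and at 4.71% ± 3.82 and 5.20% ± 4.15 in cumulus cells, where few Spire2 reads were counted. Arpc1a and Arpc1b counts share features with neighbours. Arpc1a shares 50 exonic bases with Kpna7 (chr5:145083923-145083972), an oocyte importin gene with condition means of 763 to 926 CPM in oocytes and 0.206 to 0.997 CPM in cumulus cells, and Arpc1b shares 931 exonic bases with Pdap1 (chr5:145128769-145129699), with condition means of 9.47 to 13.4 CPM in oocytes and 22.6 to 30.2 CPM in cumulus cells, where those of Arpc1b were 43.2 to 65.1 CPM (scaled within a cell type). The libraries were made from double-stranded cDNA and read single-end, and no step that keeps the strand of the RNA is described. Reads in the shared bases can thus come from either gene. A strand setting of the counting is not given either, and the part of these bases in the counts was not tested. Reads that map to several genes were shared, which can leave the count of a library not whole. Among deposited first-set oocyte libraries with a nonzero count, it was not whole in 39.2% for Arpc1a and 79.7% for Arpc1b. For Actr2 and for Actr3 it was not whole in 83.8%, and for Fmn2, Spire1 and Spire2 in 0%. These are shares of libraries, and the share of reads that map to several genes was not measured.

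Related genes, of lists chosen with earlier results known, lay on both sides. Of 12 other formins, 7 were higher and 3 lower in oocytes in the first set and 6 and 5 in the second, led by Fmnl3 (log2 difference 7.61 and 7.43, 1082 ± 271 CPM in first-set oocytes) and Fhod3 (6.37 and 5.98), while Diaph2 was lower (-4.15 and -5.73). Of 16 partners in spindle positioning, 8 were higher in each set, led by Mos, the kinase that keeps meiosis in its second arrest (644 against 0.123 CPM in the first set), and Myo5b, a vesicle motor (1374 against 0.379 CPM), with the membrane linker Rdx higher (4.21 and 4.04) and its relative Ezr lower (-2.69 and -4.30). Of 20 Arp2/3 activators, 10 were higher in each set, led by Wasf3 (48.3 against 0.0796 CPM in the first set) and Nckap1l (42.3 against 0.166 CPM), and 6 and 9 were lower, Jmy with -4.60 in the second set. Of 21 genes of actin monomers and turnover, 8 were higher in each set and 8 and 10 lower, among them Actb, the beta actin itself (-2.32 and -3.41). Of 7 Arp2/3 inhibitors tested, 2 were higher and 3 lower in the first set and 1 and 4 in the second, Arpin with -1.82 and -2.32. The fractions called, 16 of 20 activators for example in the first set, lay near the 80.3% of all genes.

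The condition means of the members lay close together in oocytes of the second set and farther apart in those of the first, which the plot of levels by condition shows. From here on, CPM are scaled within a cell type. In oocytes of the second set, the highest condition mean was 1.06 times the lowest for Fmn2 (305 to 322 CPM within oocytes), 1.07 times for Actr2, 1.08 times for Spire1 and Actr3, 1.09 times for Arpc2, 1.15 times for Spire2 and Arpc1b and 1.18 times for Arpc1a. In oocytes of the first set these spans were 1.101 times for Actr2 and 1.11 times for Fmn2, and were widest for Arpc1a (1.76 times, 15.9 CPM in CR to 28.1 CPM in young) and Arpc1b (1.89 times, 90.2 CPM in CR to 170 CPM in young). Among single oocytes of a condition, the coefficient of variation of Actr2 was 6.83% to 8.72% over the conditions of the second set, where counting error alone gives 3.77% to 3.96%, and that of Fmn2 was 8.52% to 10.9% (3.72% to 4.00%). Arpc1a, with few counts, varied by 18.7% to 27.99% (13.1% to 14.0%).

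**Figure D3:**
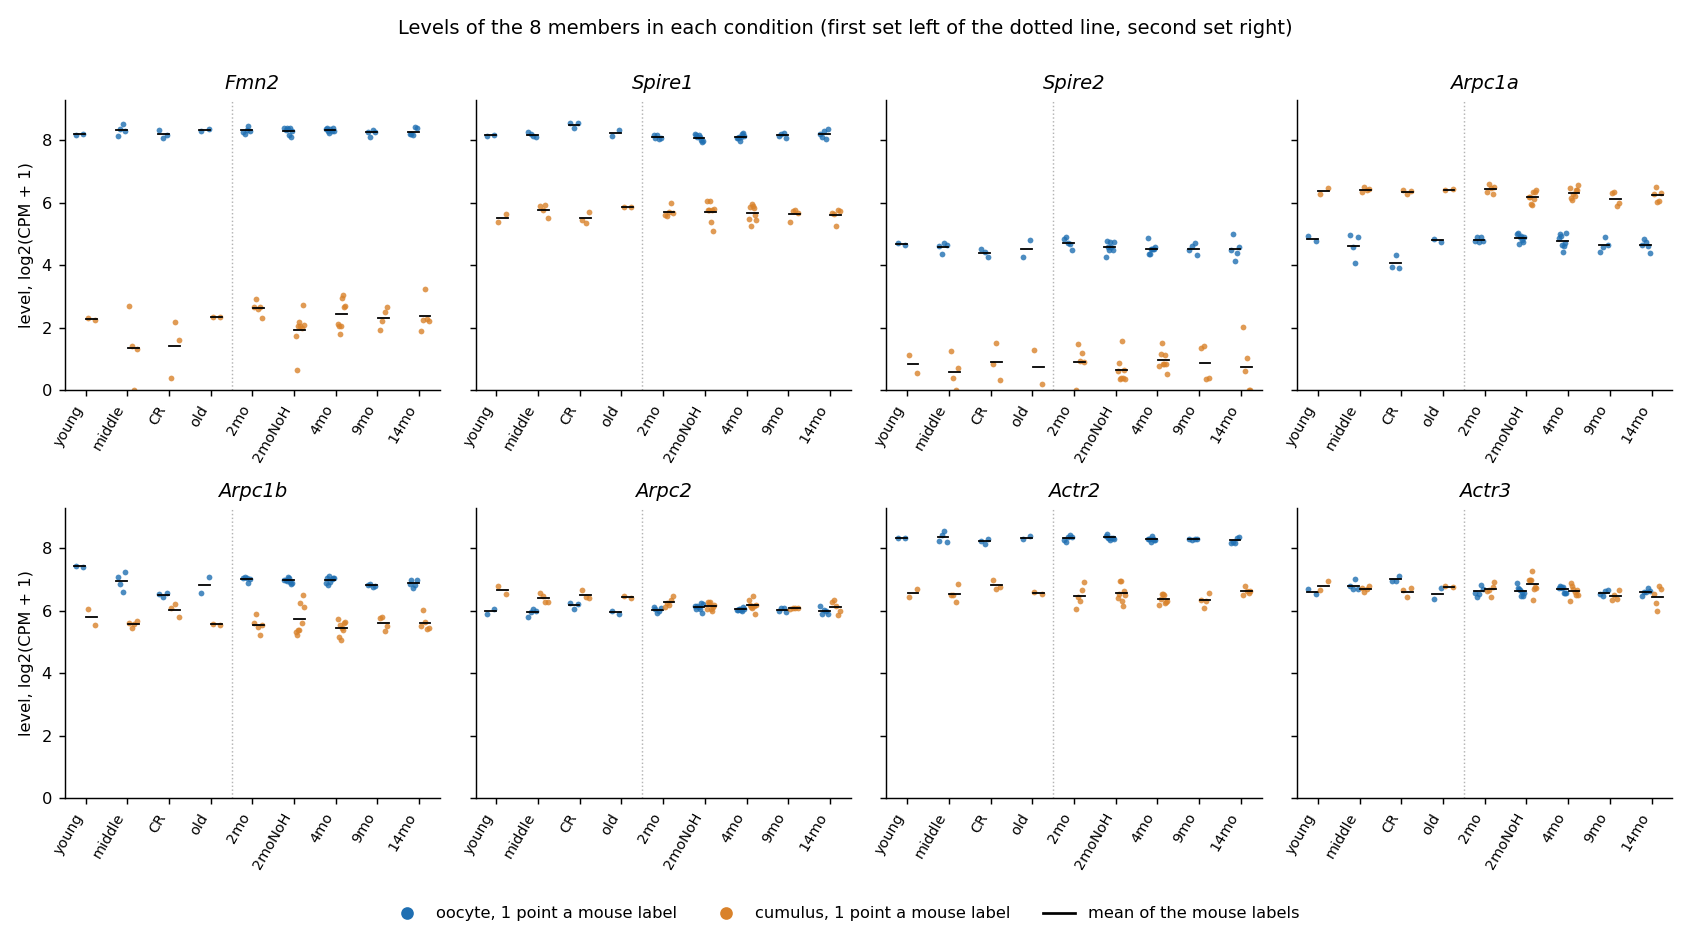
Level of each member, as log2(CPM + 1) scaled within a cell type (y axis), by condition (x axis), with 1 point for each mouse label and a line at the mean. The condition means of Fmn2 in oocytes lay between 291 and 322 CPM in the first set and between 305 and 322 CPM in the second, and those in cumulus cells between 1.99 and 5.32 CPM. Levels scaled within a cell type give no direction between the cell types.

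In 16 comparisons between conditions within a cell type, 128 member tests in all, 0 were called by edgeR on mouse sums at an adjusted p under 0.05. At an unadjusted p under 0.05 there were 11, DESeq2 on the same sums called 3, and edgeR with libraries as units called 8. The smallest adjusted p was 0.059 and the log2 differences stayed within 0.78 in size. The share of all genes called is given with each comparison.

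Calorie restriction was the comparison with most changes over all genes. All CR libraries were deeper than all middle ones of their cell type, and the part of depth in the differences was not tested. In oocytes of CR against middle mice, 2082 of 27124 genes were called (7.68%; 1243 higher and 839 lower), and 0 of the 8 members were (3 at an unadjusted p under 0.05, 3 by DESeq2). The 3 members nearest to the threshold were Arpc1a and Arpc1b, both lower in CR, and Spire1, higher in CR. Arpc1a stood at 14.6, 19.01 and 14.2 CPM in CR1, CR2 and CR3 and at 30.6, 23.04, 15.8 and 28.96 CPM in Middle1 to Middle4. These groups overlapped, through Middle3, of which 1 oocyte was left. The log2 difference of Arpc1a was -0.66 ± 0.20 (SE, 95% interval -1.08 to -0.23, adjusted p = 0.059, edgeR; 0.00021 to 0.23 over 15 alternatives). Arpc1b stood at 91.3, 85.7 and 93.6 CPM in CR and at 135, 116, 96.9 and 151 CPM in middle oocytes. All 3 CR labels were below all 4 middle labels for Arpc1b, with a log2 difference of -0.47 ± 0.16 (SE, 95% interval -0.82 to -0.13, adjusted p = 0.091, edgeR; 1.5e-05 to 0.34 over 15 alternatives). Pdap1, which overlaps Arpc1b, was also lower in CR oocytes, with 9.47 ± 0.77 CPM (n = 3) against 13.4 ± 0.85 CPM (n = 4).

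Spire1 stood at 376, 339 and 372 CPM in CR oocytes and at 308, 297, 283 and 274 CPM in middle oocytes. The groups did not overlap, and the log2 difference was 0.32 ± 0.11 (SE, 95% interval 0.09 to 0.55, adjusted p = 0.094, edgeR; 0.0026 to 0.25 over 15 alternatives). Actr3 stood at 124, 122 and 137 CPM in CR and at 109, 103, 129 and 103 CPM in middle oocytes, which overlapped (log2 difference 0.21, adjusted p = 0.37, edgeR). The other 4 members had intervals around 0: Fmn2 with 293 ± 25.02 CPM in CR (n = 3) and 322 ± 36.5 CPM in middle oocytes (n = 4) had a log2 difference of -0.14 (95% interval -0.40 to 0.12), Actr2 of -0.14 (-0.40 to 0.12), Spire2 of -0.19 (-0.55 to 0.16) and Arpc2 of 0.23 (-0.02 to 0.48). The median of the 8 members was -0.14, and that of all genes 0.01.

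With libraries as units, 4 of the 8 members were called in this comparison, Arpc1a (log2 difference -0.69), Arpc1b (-0.52), Spire1 (0.28) and Actr3 (0.26), where 22.9% of all genes were called. Without Middle3, Arpc1a (-0.76) and Arpc1b (-0.55) were called on mouse sums with adjusted p of 0.012 and 0.019 in edgeR. Without the oocyte libraries above 10% of cumulus markers, Spire1 was called (0.31, adjusted p = 0.037, edgeR), and Arpc1a (-0.59) and Arpc1b (-0.44) had adjusted p of 0.057 and 0.058 in edgeR. The mean percentage of cumulus markers in the oocyte libraries of a label was 2.21% to 4.58% in CR and 0.979% to 9.34% in middle mice.

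**Figure D4:**
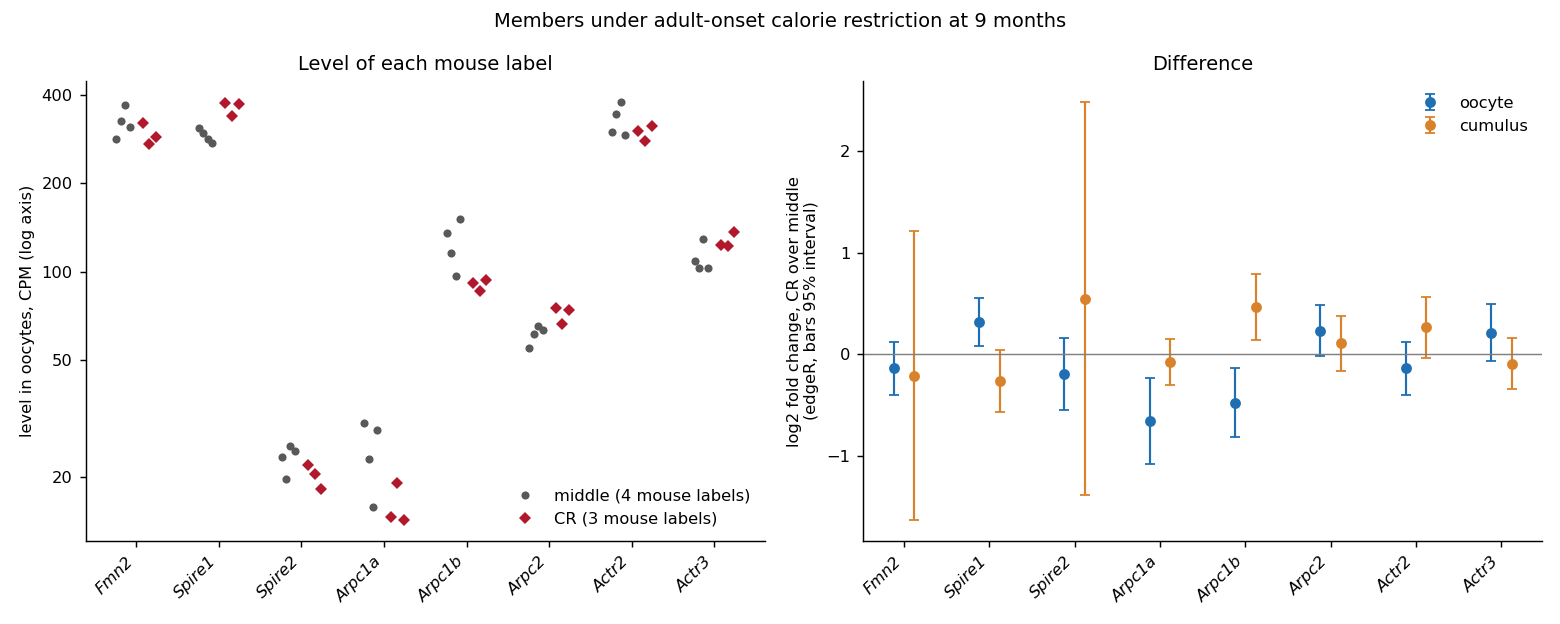
Left, level in oocytes (CPM scaled within oocytes, log axis) of each member in the 4 middle and 3 CR mouse labels, 1 point each. Right, log2 fold change of CR over middle in oocytes and in cumulus cells, with bars for the 95% interval of the edgeR fit. Spire1 was higher and Arpc1b lower in oocytes of all 3 CR labels than of all 4 middle labels, and in cumulus cells the interval of Arpc1b lay above 0 (0.14 to 0.79).

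In cumulus cells of CR against middle mice, 17 of 26461 genes were called (0.0642%) and 0 members (1 at an unadjusted p under 0.05, 0 by DESeq2). Arpc1b, lower in CR oocytes, stood at 67.1, 73.1 and 55.2 CPM in CR cumulus cells and at 48.2, 42.9, 47.1 and 50.6 CPM in middle ones. All 3 CR labels were above all 4 middle labels, with a log2 difference of 0.47 ± 0.15 (SE, adjusted p = 0.30, edgeR), and with libraries as units it was 0.43 (adjusted p = 0.0071, edgeR, with 5.49% of all genes called). The Arpc1b share of the Arpc1 pair in cumulus cells was 28.8% ± 3.51 in CR and 21.8% ± 1.81 in middle mice (exact two-sided permutation test, p = 0.057, adjusted p = 0.23 over 24 share tests; 0.057 is the smallest p that 3 against 4 labels allow). The log2 differences of the members in cumulus cells lay between -0.26 and 0.55. In oocytes the share was 74.0% ± 4.04 in CR and 72.1% ± 2.71 in middle mice. The means of both forms were lower in CR oocytes, and neither form was called there. The Spire2 share in oocytes was 14.7% ± 1.44 in CR and 19.8% ± 2.31 in middle mice (exact two-sided permutation test, p = 0.057, adjusted p = 0.23). None of the 24 share tests had an adjusted p under 0.05, but comparisons of 3 with 4 labels (smallest p 0.057) and of 2 with 2 labels (smallest p 0.33) could not pass that threshold. A permutation test of 4 with 5 labels (smallest p 0.016) or of 5 with 5 labels (smallest p 0.0079) could not pass it alone after adjustment.

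The difference between both responses was tested as the response in oocytes minus that in cumulus cells. For CR, 163 of 32407 genes were called (0.503%) and 0 members (3 at an unadjusted p under 0.05, 2 by DESeq2), and the median of all genes was 0.20, so values, from -0.67 to 0.87 for the members, are to be read against that shift. Spire1 had 0.87 ± 0.27 (SE, adjusted p = 0.14, edgeR), Actr3 0.61 ± 0.24 (adjusted p = 0.27, edgeR) and Arpc1b -0.67 ± 0.31 (adjusted p = 0.38, edgeR). Arpc1b was called in this contrast with libraries as units (-1.03, where 10.8% of genes were called, with Arpc1a and Actr2), with library totals in place of TMM (-0.96, adjusted p = 0.030, edgeR), by DESeq2 (-0.95, adjusted p = 0.0032) and without the oocyte libraries above 10% of cumulus markers (-1.11, adjusted p = 0.019, edgeR). These values go with other shifts, since the median of all genes was -0.12 with libraries as units, -0.09 with library totals and -0.02 by DESeq2. Without the libraries above 10% of cumulus markers the Spire1 value was 0.35 and that of Actr3 0.06. The median of all genes in that fit is not given here, and the part of the scaling in these values was not tested.

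Other genes of the actin system were called in CR oocytes, and the count of each list is to be read against the 7.68% of all genes called. The 2 of 19 activators and 1 of 16 partners lay near that share. Of 12 other formins, 3 were higher and 0 lower: Fmn1 (17.5 ± 0.77 CPM in CR, n = 3, against 10.2 ± 1.67 CPM, n = 4, log2 difference 0.75), Fmnl2 (0.68) and Diaph3 (0.61). Of 19 Arp2/3 activators tested, 2 were higher and 0 lower, both part of the WAVE complex that switches Arp2/3 on: Abi2 (32.9 ± 7.999 against 11.8 ± 3.96 CPM, 1.41) and Nckap1 (196 ± 18.6 against 129 ± 6.23 CPM, 0.61). Of 7 inhibitors tested, 2 were higher and 0 lower, Coro1c (1.0) and Gmfb (0.82), proteins that take branches apart. Of 21 monomer and turnover genes, 2 were higher, Capza2 (0.53) and Twf1 (0.50), and 2 lower, Pfn1 (-0.99) and Cfl1 (-0.45). Pfn1, the profilin that hands actin to formins, stood at 48.3 ± 1.82 CPM in CR and 96.9 ± 17.5 CPM in middle oocytes. Of 16 partners in spindle positioning, 1 was higher, the GTPase Rhoa (0.43). Nckap1, Gmfb, Diaph3 and Pfn1 were called under all 15 alternatives tried for this comparison, and Fmnl2, Capza2, Twf1, Cfl1 and Rhoa under 6 to 8 of them. Medians were 0.07 for the formins, 0.06 for the activators, 0.32 for the inhibitors and -0.22 for the turnover genes, against 0.01 for all genes. Of 12 cumulus markers in the same oocyte libraries, 1 was called, Kitl, with 21.4 ± 7.06 against 8.38 ± 1.97 CPM (1.28), and the median of the 12 was -0.35. Its part in these results was not tested.

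With age, in the first set, no gene was called between middle and young, old and young, or old and middle oocytes (0%, 0% and 0% of 27124 genes by edgeR on mouse sums; 883, 2656 and 1400 genes at an unadjusted p under 0.05; 0, 10 and 0 by DESeq2). Each group of young and old held 2 mouse labels. Among the members, Arpc1b was the only gene at an unadjusted p under 0.05, in middle and in old against young oocytes, with 172 and 168 CPM in young, 135, 116, 96.9 and 151 CPM in middle and 94.3 and 134 CPM in old oocytes. Young labels were above all others. The log2 difference of Arpc1b was -0.44 ± 0.18 (SE, adjusted p = 1, edgeR) for middle against young and -0.58 ± 0.21 (SE, adjusted p = 0.51, edgeR) for old against young. With libraries as units, old against young gave -0.59 (adjusted p = 0.00027, edgeR), where 17.7% of genes were called. On mouse sums, the values without Old1_2 and without Old3, each with a single old label left, were -0.36 and -0.85. Old oocyte libraries had more cumulus markers than young ones (median 4.57% against 1.45% of the cumulus level) and less of the oocyte markers (75.5% against 100.7% of the oocyte level), and without the libraries above 10% of cumulus markers the value was -0.51. Their part in the difference was not tested. The other members lay between -0.25 and 0.18 in log2 difference in these comparisons, with no unadjusted p under 0.05.

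In cumulus cells of the first set, 1 of 26461 genes was called between middle and young (0.00378%), 6 between old and young (0.0227%) and 0 between old and middle (0%), and 0 members (0 at an unadjusted p under 0.05 and 0 by DESeq2 in each). Fmn2 in cumulus cells, at 3.87 ± 0.10 CPM in young (n = 2), 2.18 ± 2.36 CPM in middle (n = 4) and 4.10 ± 0.03 CPM in old mice (n = 2), rested on a few counts per library. The log2 differences of the members lay between -0.63 and 0.24 for middle against young, -0.24 and 0.35 for old against young and -0.01 and 0.72 for old against middle cumulus cells. The difference between oocyte and cumulus responses to age in the first set called 0 genes (0%; 1490 at an unadjusted p under 0.05, 10 by DESeq2). The members lay between -0.63 and 0.24 there. Arpc1b had -0.33 ± 0.40 (SE, adjusted p = 1, edgeR) in that contrast and, with libraries as units, -0.57 (adjusted p = 0.016, edgeR, with 6.67% of genes called).

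The second set held more mice and smaller differences. In oocytes, 0 of 25850 genes were called between 4mo and 2mo (0%; 1275 at an unadjusted p under 0.05, 2 by DESeq2), 16 between 9mo and 2mo (0.0619%) and 56 between 14mo and 2mo (0.217%). Of the members, 0 were called in each (0, 1 and 1 at an unadjusted p under 0.05, 0 by DESeq2). Arpc1b was again the member nearest to a call. It stood at 131, 135, 133, 118 and 128 CPM in 2mo, at 114, 116, 108 and 111 CPM in 9mo and at 116, 125, 105, 114 and 126 CPM in 14mo oocytes, and between 112 and 137 CPM in the 8 labels of 4mo (median 130 CPM). All 9mo labels were below all 2mo labels, and those of 14mo overlapped them. The log2 difference of Arpc1b was -0.20 ± 0.06 (SE, 95% interval -0.32 to -0.08, unadjusted p = 0.0017, adjusted p = 0.40, edgeR) for 9mo and -0.13 ± 0.06 (SE, unadjusted p = 0.023, adjusted p = 0.40, edgeR) for 14mo against 2mo. The sign of Arpc1b was the same in both sets for the age comparisons with young mice, which within a set share their control mice. The other 7 members stayed between -0.20 and 0.09 in log2 difference in these 3 comparisons in oocytes, and the 95% intervals reached from -0.44 to 0.21.

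Fmn2 had no call with age in oocytes, with 318 ± 20.1 CPM in 2mo (n = 5), 322 ± 11.4 CPM in 4mo (n = 8), 305 ± 18.9 CPM in 9mo (n = 4) and 310 ± 25.4 CPM in 14mo oocytes (n = 5). Spire1 stood at 276 ± 12.7, 276 ± 16.6, 286 ± 12.04 and 294 ± 27.99 CPM in the same groups, with no call. Of the partners in spindle positioning, Myh9, the heavy chain of cortical myosin II, was called in 14mo oocytes, with 214 ± 10.7 against 180 ± 8.09 CPM in 2mo (log2 difference 0.25, adjusted p = 0.012, edgeR; called in 13 of 17 alternatives). No gene of the other lists of actin regulators was called in oocytes of the second set.

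In cumulus cells of the second set, 0 of 27237 genes were called between 4mo and 2mo (0%; 1620 at an unadjusted p under 0.05, 1 by DESeq2), 21 between 9mo and 2mo (0.0771%) and 20 between 14mo and 2mo (0.0734%). Of the members, 0 were called in each (0, 1 and 0 at an unadjusted p under 0.05, 0 by DESeq2). Arpc1a stood at 80.5, 96.7, 87.7, 76.2 and 90.5 CPM in 2mo and at 78.5, 79.6, 58.2 and 62.4 CPM in 9mo cumulus cells. The members lay between -0.19 and -0.04 in log2 difference for 4mo, -0.36 and 0.05 for 9mo and -0.29 and 0.11 for 14mo. For Arpc1a the 9mo and 2mo groups overlapped, and the log2 difference was -0.31 ± 0.13 (SE, adjusted p = 0.57, edgeR). The Arpc1b share of the pair was 25.7% ± 0.53 in 9mo (25.3% to 26.5%) and 21.2% ± 1.86 in 2mo cumulus cells (19.4% to 23.4%), with no overlap (exact two-sided permutation test, p = 0.016, adjusted p = 0.23 over 24 share tests). That is the smallest p that 4 against 5 labels allow, and alone it could not pass the threshold after adjustment over 24 tests. The difference between oocyte and cumulus responses to age, 14mo against 2mo, called 11 of 33123 genes (0.0332%) and 0 members (0 at an unadjusted p under 0.05, 0 by DESeq2), which lay between -0.27 and 0.20.

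Without hyperovulation, no gene was called in oocytes against hyperovulated mice of the same age (0 of 25850, 0%, by edgeR; 1170 at an unadjusted p under 0.05, 0 by DESeq2). The members lay between -0.14 and 0.09 in log2 difference, and their 95% intervals between -0.35 and 0.26. Fmn2 had 317 ± 23 CPM in 2moNoH (n = 8) and 318 ± 20.1 CPM in 2mo oocytes (n = 5), and Arpc1b 125 ± 6.30 and 129 ± 6.69 CPM.

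Cumulus cells without hyperovulation had 536 of 27237 genes called (1.97%; 212 higher and 324 lower) and 0 members (2 at an unadjusted p under 0.05, 0 by DESeq2). The 2 were Fmn2 and Arpc1a, and all members lay between -0.78 and 0.24 in log2 difference. Fmn2 stood at 5.41, 6.64, 5.10, 5.43 and 4.02 CPM in 2mo and between 0.558 and 5.59 CPM in 2moNoH cumulus cells (median 3.17 CPM, 8 labels), and 7 of the 8 were below the lowest 2mo label. The log2 difference of Fmn2 was -0.78 ± 0.31 (SE, 95% interval -1.42 to -0.15, adjusted p = 0.21, edgeR), and 8 of the 32 libraries of 2moNoH had no Fmn2 count against 0 of 24 of 2mo. Arpc1a, at 86.3 ± 8.13 CPM in 2mo and between 60.6 and 83.8 CPM in 2moNoH (median 72.3 CPM), had -0.25 ± 0.11 (SE, adjusted p = 0.26, edgeR). With libraries as units, Arpc1a (-0.23) and Actr3 (0.23) were called, where 12.4% of genes were. Arpc1b in cumulus cells ranged more widely in 2moNoH than in any other condition, from 36.6 to 90.4 CPM (median 44.3 CPM), against 36.7 to 58.9 CPM in 2mo, and its share of the pair was 26.9% ± 5.35 against 21.2% ± 1.86 (exact two-sided permutation test, p = 0.028, adjusted p = 0.23).

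Among the cumulus markers, 3 of 12 were lower in these cells, Inhba (log2 difference -2.05), Fshr (-0.92) and Npr2 (-0.64), genes of the inhibin and activin, gonadotropin and natriuretic peptide systems. From a list of 5 endothelial markers, Cdh5 was lower (-2.18, at 1.06 ± 1.09 against 4.86 ± 4.14 CPM). In that list, Pecam1 (5.93) and Kdr (4.48) were higher in oocytes than in cumulus cells of the first set, and Cdh5 (-3.35) and Vwf (-1.49) lower. The part of a different cell makeup in the member values was not tested. No gene of the actin lists was called in cumulus cells without hyperovulation. The response of oocytes minus that of cumulus cells called 114 of 33123 genes (0.344%) and 0 members, with Fmn2 at 0.73 ± 0.26 (SE, adjusted p = 0.29, edgeR; 0.025 by DESeq2) and the others between -0.33 and 0.40.

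**Figure D5:**
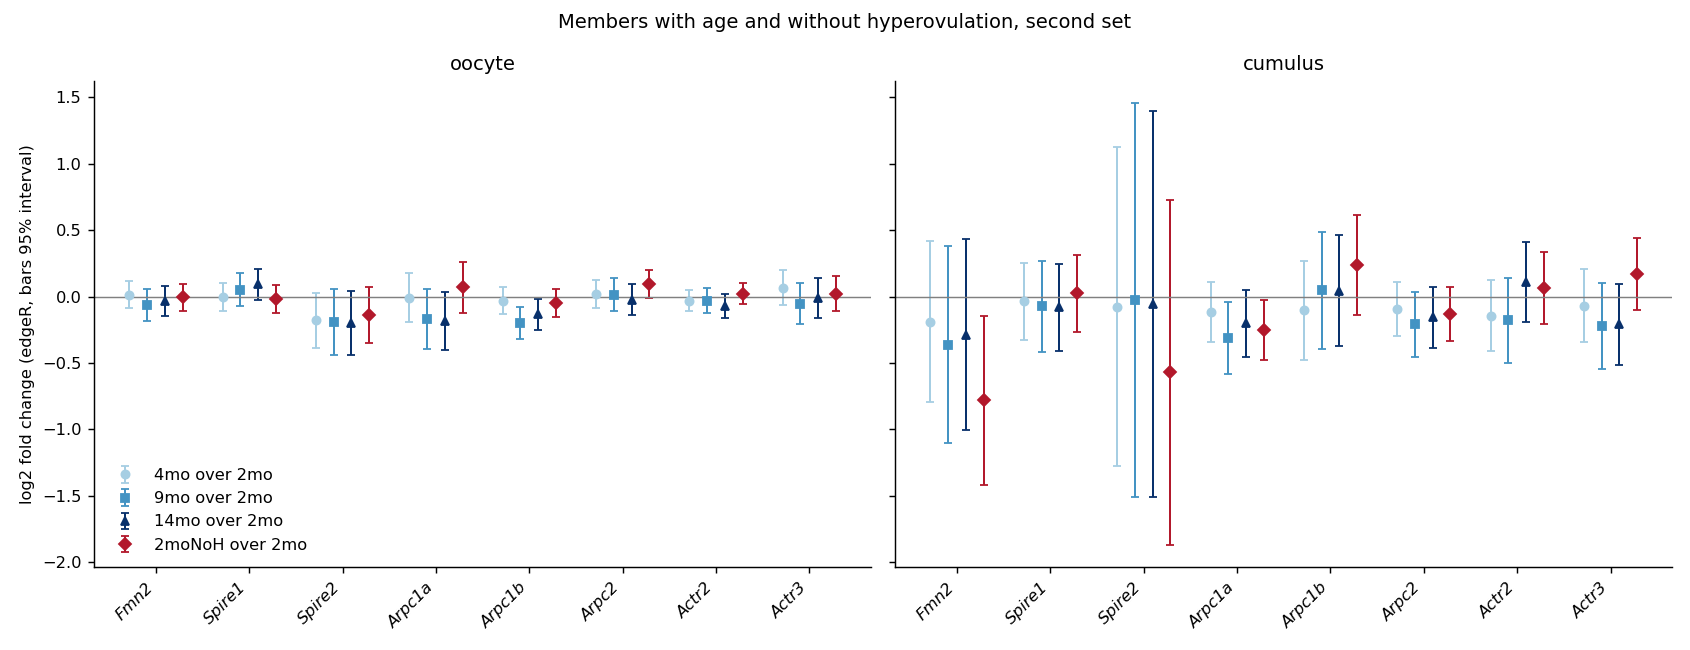
Log2 fold change over 2mo (y axis) of each member (x axis) for 4mo, 9mo, 14mo and 2moNoH in oocytes (left) and cumulus cells (right) of the second set, with bars for the 95% interval of the edgeR fit. Oocyte values lay between -0.20 and 0.10 with short intervals, and cumulus intervals were widest for Spire2 and Fmn2, which had few counts there.

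Correlations of Fmn2 with the other members were low. Over the 127 oocyte libraries of the second set, each centred on its condition mean, the Pearson correlation of Fmn2 was 0.13 with Spire1 and 0.24 with Actr3, and those of the other members with Fmn2 lay between -0.15 and 0.17. These libraries share depth and composition effects, and the values are given as a description. Differences between mouse labels, and between the label prefixes B1 and B2 found in every condition of this set, were not removed from these or the following correlations. The genes most like each member in the cell type where it was higher on the joint scale, among 8787 oocyte and 9702 cumulus genes with a mean of at least 10 CPM, were Gm10436 (0.59) and Rgs2 (0.57) for Fmn2, Ing1 (0.38) and Il12rb2 (0.36) for Spire1, Nanos2 (0.41) and Gm42846 (0.37) for Spire2, Gm31941 (0.58) and Ddit4 (0.58) for Arpc1b, Tpd52 (0.34) and Fbxw14 (0.32) for Arpc2, Gm37240 (0.57) and Arfip1 (0.53) for Actr2 and Ranbp9 (0.65) and Ddx3x (0.63) for Actr3, over the 127 oocyte libraries. Over the 128 cumulus libraries they were Nucks1 (0.55) and Prdx1 (0.54) for Arpc1a. Arpc1a and Arpc1b, the alternative forms, had a correlation of 0.48 in cumulus and -0.16 in oocyte libraries.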

How the data were processed

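RNA of single GV oocytes and of the cumulus cells of the same complex had been sequenced by RamDA-seq, single-end and without molecular identifiers, so the counts are reads and not molecules. The authors trimmed and mapped the reads to GRCm38 (HISAT2 2.0.5), assigned them to GENCODE genes (featureCounts 1.5.1), sharing reads that map to several places, and deposited an expected count for each gene and library (estimated counts that need not be whole) in 1 table for each of the 2 sets. The RPKM deposited by the authors (reads relative to gene length and mapped reads) served only to check the order of the members, since those of the CR libraries do not follow from the counts as those of other groups do. The libraries were made from double-stranded cDNA without a described step that keeps the strand of the RNA. A strand setting of the counting is not given in the sources used here.

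Counts were summed over the libraries of a mouse label, since libraries of 1 mouse are not independent. The sums were then rounded to whole numbers and were the replicates. A gene was tested where it had a count of at least 1 in at least 5 libraries. edgeR 4.0.16 (R 4.3.3) with TMM scaling and the quasi-likelihood test was fitted for each cell type and set over all its conditions, and for both cell types together where they were compared, with Benjamini-Hochberg adjustment over all genes tested and a threshold of 0.05. The study's own unit, the library, DESeq2 1.42.0 and other scalings, filters and subsets were alternatives. Each label was left out in turn in groups of up to 5. Levels per length were divided by the union of a gene's exons. Shares were compared by exact permutation tests (scipy 1.17.1) over mouse labels. The model fits were tested on simulated data with known changes. A complex was left out where a library correlated more with the mean profile of the other cell type.

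Oocytes and cumulus cells of a label come from the same animal, which gives the pairing. The deviations from the group means of both cell types correlated by -0.07 to 0.10 in the 11 labels of the first set and by -0.09 to 0.25 in the 30 of the second. Mouse labels were taken as separate animals, except Old1_2. The study describes the CR mice as housed individually and fed once a day, and does not give the housing of the other mice. In the comparison of CR with middle mice, these conditions cannot be told apart from the amount of food. The greater depth of all CR libraries goes with the same groups and cannot be told apart from the diet either. Where labels do not say how mice were housed or processed, p-values set a difference against the spread between these mouse labels. They do not cover housing or processing differences that go with a group.

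The members and the lists of related genes were chosen with earlier results of these data known. All 8 members were tested in every comparison, and where a comparison names only some, the range of all is given. Of the lists, at most 4 genes past the threshold with the largest log2 differences are named in a comparison, and for each member the 2 genes whose log2(CPM + 1) values, centred by condition, correlated most with it. A member's log2 difference was followed through the alternatives one by one where its unadjusted p was under 0.05, where any alternative called it, and for CR against middle oocytes. The promoter windows come from RefSeq (GRCm38.p6). Intervals are at the 95% level.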

Additional observations from a re-analysis of the deposited data

Results flagged for a closer look

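Of 120 groups of 4 to 10 mouse labels, 8 held a label whose gap to its nearest neighbour was large for the range of the group (Dixon's test at the 95% level), where chance gives about 1 in 20, or 6. In 14mo cumulus cells, Arpc1b was at 63.9 CPM in the label 14mo38, with the nearest label at 48.4 CPM. The label 14mo39 stood apart for Fmn2, at 8.56 CPM (nearest 3.87 CPM), and Spire1, at 37.5 CPM (nearest 49.4 CPM) in cumulus cells. In 9mo cumulus cells, Arpc2 was at 65.1 CPM in 9mo21, below the nearest label at 67.1 CPM. Spire2 was at 2.01 CPM in cumulus cells of 2moNoH6 (nearest 0.837 CPM) and at 28.5 CPM in oocytes of 4mo25 (nearest 23.3 CPM). The Spire2 share of Spire1 and Spire2 was 13.1% in cumulus cells of 2moNoH6 (nearest 5.19%) and 13.4% in those of 4mo27 (nearest 6.37%). No cause was tested for these labels.

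The response of the formin Fmn1 to CR differed between oocytes and cumulus cells, with a log2 difference of differences of 1.78 ± 0.40 (SE, adjusted p = 0.037, edgeR).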

How the results depend on the processing

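Over all comparisons, the number of members called stayed within 1.5 times its value in 126 alternative fits that left out no label and moved in 17, and in 154 and 1 of those that left out a label. In oocytes of CR against middle mice, where 0 members were called, 1 was called with all deposited libraries, with edgeR's own expression filter, with library totals, with only the 2 conditions and without libraries high in cumulus markers, 2 without any filter, 3 by DESeq2 and 4 with libraries as units, and 0 to 2 when each label was left out in turn (2 without Middle3). Libraries as units called 1 in CR against middle cumulus cells, 1 in old against young oocytes, 2 in 2moNoH against 2mo cumulus cells, and, for oocyte minus cumulus responses, 3 for CR and 1 for old against young. For the CR response, DESeq2 called 2, library totals 1 and the set without libraries high in cumulus markers 1, and DESeq2 called 1 for 2moNoH. Between cell types in the first set, 7 to 8 were called when labels were left out. Values that turned sign were those of Arpc2 between cell types (-0.028 by DESeq2 and -0.48 with library totals in the first set, -0.12 with totals in the second), of Fmn2 (0.057) and Actr2 (0.012) for CR oocytes with all deposited libraries, of Actr2 for the CR response difference (-0.25 to 0.10 when labels were left out, 0.10 without CR1 and 0.02 without Middle2), of Arpc1b for the old response difference (-0.64 to 0.026, the latter without Young2) and of the Arpc1b share of 14mo minus 2mo oocytes (-0.40 percentage points with the median over libraries). The cause was not tested. With the mouse as replicate block, the oocyte minus cumulus log2 difference was 7.55 and 6.72 for Fmn2, 2.04 and 1.86 for Arpc1b and 0.35 and 0.37 for Arpc2, and the block changed no call of the 8 members. Library totals, the longest coding transcript as the length for shares, the DESeq2 fits of response differences and the set without libraries high in cumulus markers were chosen after seeing the data. Few reads per cumulus library limit what can be said of Fmn2 and Spire2 there.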
